A study of Drosophila melanogaster with 6 samples.

Results

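The comparison described here sets 1 gut library of adult Drosophila melanogaster with RNAi against foxo in flight muscle beside 1 gut library of driver control flies. In the foxo RNAi group (Act88F-Gal4 with UAS-Foxo RNAi), the promoter of the flight muscle actin gene Act88F drove a hairpin against foxo. The control group carried the same driver crossed to w1118, so both groups carried Act88F-Gal4. Intact intestines were dissected from flies aged 10 days that had been reared at 25 °C and moved to a diet of sugar and yeast 2 to 3 days after eclosion. The sample records also give 10 days on this diet, so the day from which age was counted is unclear. The sources used here give neither the sex of the flies nor the number of flies per library. Of 17609 genes listed in the files, the 7866 with at least 30 reads in the 2 gut libraries together were compared. Counted reads came to 14532894 for control and 14227132 for foxo RNAi gut, above the 7000000 to 12000000 reads per library of the series design text. In thorax they came to 17987881 for control and 34385727 for foxo RNAi, and in carcass to 15621447 and 13274574. Pairs of thorax read counts below are therefore not at equal depth.

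The fly midgut is lined by enterocytes, which secrete digestive enzymes and absorb nutrients, and by enteroendocrine cells, which release peptide hormones. Both types descend from intestinal stem cells, whose division rises with cytokine and growth factor signals from damaged or stressed tissue. The dissected tract also has visceral muscle, nerves and, where they stay attached, Malpighian tubules. Foxo is a transcription factor held back by insulin signalling, and in flies it is known to act in muscle on secreted factors that reach other organs. Fewer cells of a type and less RNA per cell cannot be told apart in these bulk libraries.

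With 1 library per genotype there is no replicate check, and every difference below describes a pair of libraries. Counts were scaled with the trimmed mean of M values (TMM), 0.5 was added to each count, and each ratio was given an exact 95% interval that covers counting error only. A call of higher or lower needed a ratio of at least 2-fold and a bound nearest to equality of at least 1.5-fold. By this rule 175 genes were higher, 2.22% of those compared, and 250 were lower, 3.18%, so that 5.4% were called. These percentages are the background against which counts in the gene groups are read. Levels are given as reads per 1000000 counted reads (CPM). Of the genes compared, 1281 had a CPM at least 5 times higher in thorax or carcass than in gut and are described as genes of other tissues. Among these 4.92% were higher and 4.22% lower, 9.13% in all. Without them 1.7% of 6585 genes were higher and 2.98% lower, 4.68% in all.

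The scaling sets the balance of directions. The median log2 ratio of all genes was -0.01 with TMM and 0.22 with total counts, under which 333 genes were higher and 172 lower. All 175 genes called higher with TMM stayed higher, and 172 of the 250 lower genes stayed lower. Group medians below are therefore given against the TMM median of all genes.

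The gut identity of both libraries was plain from its defining genes. Trypsin and Jonah protease genes, the maltase gene Mal-A1, the amylase gene Amy-p and the sterol transporter gene Npc1b were among the 19 of 22 gut epithelium markers measured, and together these markers held 10.3% of control and 8.32% of foxo RNAi reads. The knockdown target, foxo (chromosome 3R of Release 6, 14056945 to 14087978, as are all coordinates here), counted 1143 reads in control and 1031 in foxo RNAi gut, and was 1.28-fold lower (1.17 to 1.39), which did not pass the rule. The driver is not named as active in gut, so this value does not check the knockdown in muscle. Act88F itself had 45 and 107 reads in gut.

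The loss of reads was concentrated in the most abundant transcripts. Of the 20 genes with the highest CPM, 4 were lower and 0 higher, and the share of all reads held by these 20 went from 26.7% in the control to 21.1% in the foxo RNAi library. Much of this fall lay in 1 carboxypeptidase gene, CG12374 (log2 ratio -1.59), and in digestive serine protease genes, both described below. Of the top 100, 11 were lower and 0 higher, with a share of 44.6% against 38.2%. Among the least abundant 10% of genes, 39 were higher and 22 lower. Called genes also lay beside each other. Of the 250 lower genes, 82 (32.8%) had an adjacent measured gene that was also lower, against 6.11% of all genes, and 33 of the 175 higher genes (18.9%) had a higher neighbour, against 4.36%. The X chromosome had 18 higher and 20 lower genes among 1273, or 1.41% and 1.57%, while arm 2R had 53 and 61 among 1643, or 3.23% and 3.71%.

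**Figure D1:**
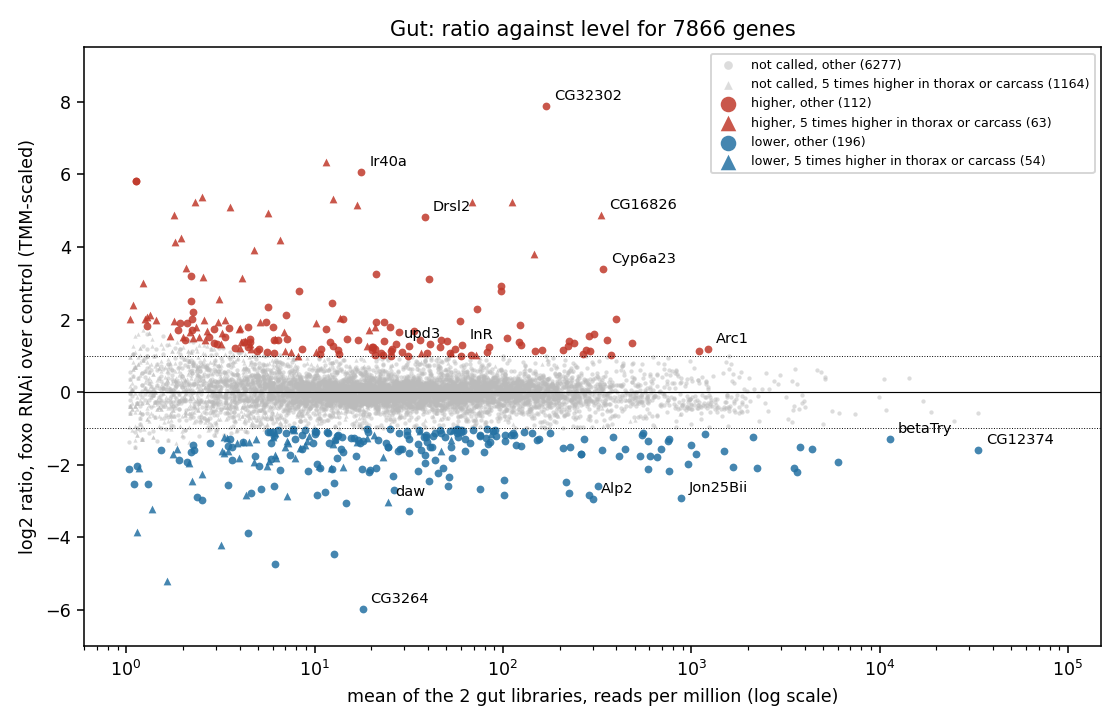
Log2 ratio of foxo RNAi over control gut against the mean level of each gene in CPM (log scale), for 7866 genes. Red points are the 175 genes called higher and blue points the 250 called lower; triangles mark genes with a CPM at least 5 times higher in thorax or carcass, and dotted lines mark 2-fold. Among the most abundant 100 genes the called points are all blue.

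Many digestive serine protease genes were lower. These Jonah and trypsin genes code for secreted enzymes that cut dietary protein in the midgut lumen. Of 29 measured members, 14 were lower and 2 higher, with a median log2 ratio of -0.92, and they summed to 17.6% of control and 11.7% of foxo RNAi reads. Jon25Bii (chromosome 2L, 4952243 to 4953136) had 22179 control and 3393 foxo RNAi reads and was 7.53-fold lower (7.27 to 7.81). Its tandem neighbours Jon25Biii, with 132947 and 40640 reads, and Jon25Bi, with 22681 and 8011, were 3.77-fold and 3.26-fold lower. On chromosome 3R, Jon99Cii went from 84657 to 21105 reads, Jon99Ciii from 79625 to 21695, Jon99Ci from 14264 to 5593 and Jon99Fi from 91270 to 35515, between 2.94-fold and 4.62-fold lower. Jon65Ai (3.06-fold), Jon65Aii (3.41-fold) and Jon44E (13013 and 4422 reads) were lower as well.

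The trypsin genes of one cluster on arm 2R did not move together. The gene betaTry (11346325 to 11347395) had 223596 and 105222 reads and was 2.45-fold lower (2.43 to 2.47). Its neighbour alphaTry (11344260 to 11345119) had 246824 and 241407 reads, 1.18-fold lower and not called. Lower calls fell also on epsilonTry (2.85-fold), thetaTry (2.54-fold) and deltaTry (2.02-fold), while kappaTry had 7983 and 13070 reads, a ratio of 1.42. The most abundant proteases of the list by read count, Jon65Aiv (536237 and 418377 reads), yip7 (431753 and 287014) and Jon65Aiii (299134 and 237478), had ratios under 1 but did not pass the rule. Opposite to the list's median, Ser6 went from 1656 to 4277 reads, 2.24-fold higher (2.12 to 2.37), and the trypsin gene Try29F from 48 to 304, 5.45-fold higher (4.04 to 7.62).

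Some peptidase genes outside that list differed too. The zinc carboxypeptidase gene CG12374 (chromosome 2R, 12762113 to 12763825) had more gut reads than any other gene called, 698728 against 267141, and was 3.01-fold lower (3.00 to 3.03). The carboxypeptidase gene CG8560 went from 21420 to 6252 reads (3.95-fold lower) and the serine protease gene CG7542 from 41197 to 20105 (2.36-fold lower). A separate list of other digestive peptidases, lysosomal and membrane ones among them, had 0 of 14 measured genes called and a median log2 ratio of -0.04. CG12374, CG8560 and CG7542 are not on it and were named because they were called. The cathepsin genes Cp1 and CtsB1 had ratios of 1.28 and 1.05, and the angiotensin converting enzyme gene Ance a ratio of 0.899.

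All 6 measured alkaline phosphatase genes, of 12 on the list, were lower, with a median log2 ratio of -2.25. These enzymes sit on the apical membrane of gut and tubule cells and remove phosphate groups. CG10592 (chromosome 3L, 5592741 to 5595272) went from 51153 to 13837 reads, 4.26-fold lower (4.18 to 4.34), and its neighbour CG5150 from 37652 to 10437, 4.16-fold lower (4.07 to 4.25). Alp2 had 7621 and 1148 reads (7.65-fold lower) and Alp4, known from Malpighian tubules, 2405 and 518 (5.35-fold lower). CG3264, which lies next to Alp2 on arm 2R, had 515 and 9 reads and was 62.5-fold lower (34.5 to 145). CG5361 had 71 and 29 reads, 2.79-fold lower. The list held 0.684% of control and 0.183% of foxo RNAi reads. The drop was shared by genes with a high level in carcass (Alp2, Alp4, CG3264) and genes with almost none there (CG10592, CG5150).

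Of 21 measured genes of carbohydrate digestion, 4 were lower and 1 higher, and the median log2 ratio was -0.10, but 0.14 with total-count scaling. The lysosomal alpha-mannosidase genes LManIII (1687 and 615 reads), LManIV (114 and 32) and LManV (14918 and 6991), adjacent on chromosome 2L, were 3.16-fold, 4.06-fold and 2.46-fold lower, and the maltase gene Mal-A3 (2436 and 1307 reads) 2.15-fold lower. The most abundant sugar enzymes by read count were near equality or above it. Mal-A1 had 35306 and 47185 reads, a ratio of 1.16, and the amylase genes Amy-p and Amy-d, near-identical copies whose reads may be divided between them, had ratios of 1.30 and 0.841. CG31148, a glucocerebrosidase homologue, went from 705 to 2294 reads, 2.82-fold higher (2.59 to 3.08).

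Among 13 measured mucin and peritrophic matrix genes, which build the layer between food and epithelium, 1 was higher and 0 lower. Crys went from 1660 to 4654 reads, 2.43-fold higher (2.30 to 2.57). The abundant Mur29B had 48139 and 84833 reads, a ratio of 1.53, and Muc68D 55526 and 38605, 1.66-fold lower, neither past the rule. Of the chitinase genes, which cut the chitin of that layer, Cht4 (1296 and 3315 reads) was 2.22-fold higher and its neighbour Cht9 (867 and 353 reads) 2.83-fold lower.

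**Figure D2:**
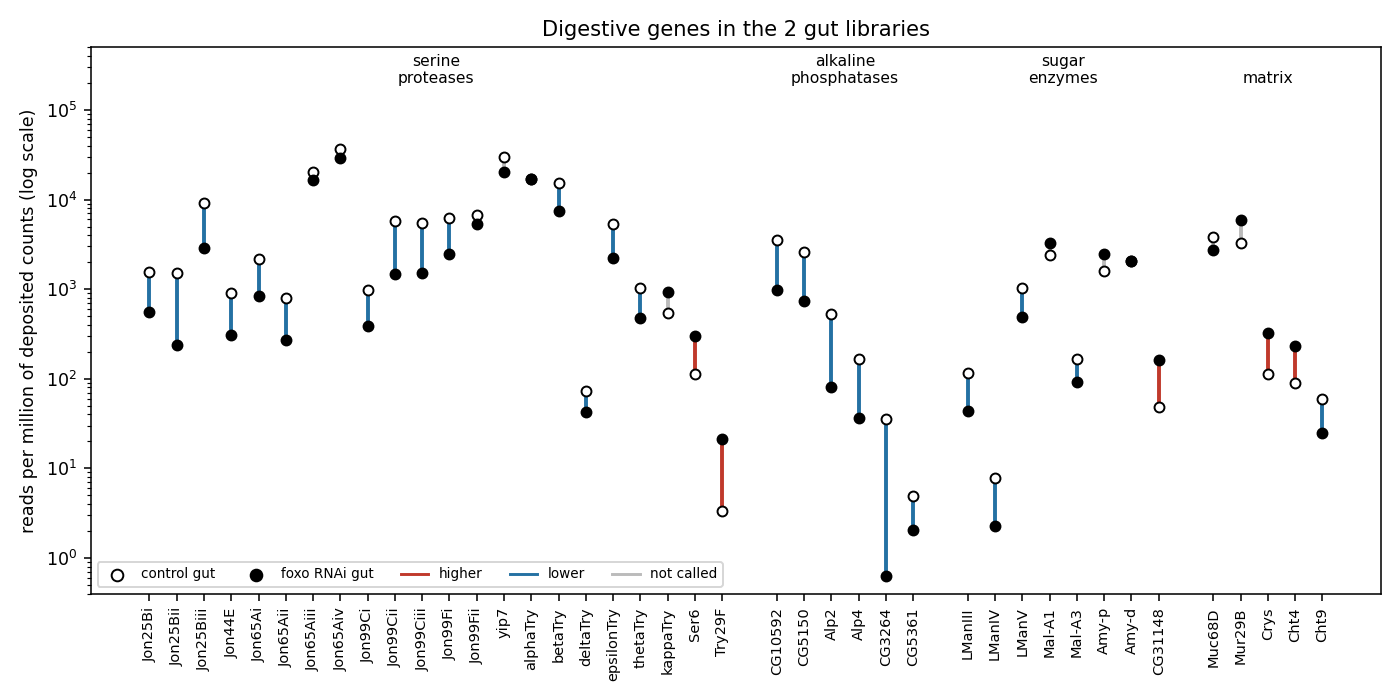
CPM (log scale) of digestive genes in the control gut (open circles) and foxo RNAi gut (filled circles), 1 library each; the line colour gives the call. Most Jonah and trypsin genes and all 6 alkaline phosphatase genes lie lower in the foxo RNAi gut, while Ser6, Try29F, CG31148, Crys and Cht4 lie higher.

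Transporters of nutrients and metals had a median log2 ratio of -0.37, with 4 of 40 measured members lower and 0 higher. With total-count scaling 3 were lower and 4 higher, and without genes of other tissues 2 were lower and 0 higher. The list's share of reads went the other way from its median, from 1.12% in control to 1.57% in foxo RNAi gut, and its 2 most abundant members, the ferritin genes Fer1HCH (57474 and 89227 reads) and Fer2LCH (59344 and 88702), had ratios of 1.35 and 1.30. The copper importer gene Ctr1B, which takes up dietary copper in midgut, had 7040 and 2686 reads and was 3.02-fold lower (2.89 to 3.16). Smvt, a homologue of the multivitamin transporter, went from 962 to 301 reads (3.68-fold lower), the zinc transporter gene ZnT35C from 254 to 109 (2.68-fold lower) and the glutamate transporter gene Eaat1 from 394 to 202 (2.25-fold lower). At the other end of the list, the zinc transporter genes Zip99C (5470 and 12448 reads, ratio 1.97) and Zip89B (343 and 776, ratio 1.96) and the metallothionein gene MtnD (406 and 894, ratio 1.91) came close to the rule without passing it. The phosphate transporter gene Picot had 20270 and 8599 reads, 2.72-fold lower (2.65 to 2.79). In the list of lipid digestion and sterol uptake, 1 of 15 genes was lower, ninaD, a scavenger receptor gene for carotenoid uptake, with 409 and 108 reads (4.35-fold lower, 3.52 to 5.45).

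Genes of triglyceride synthesis and storage were called in the lower direction alone. Of 30 measured, 6 were lower and 0 higher, 27 had ratios under 1, and the median log2 ratio was -0.58. The perilipin gene Lsd-1, whose protein coats lipid droplets, had 980 and 370 reads and was 3.05-fold lower (2.71 to 3.45). The very long chain acyl-CoA synthetase gene bgm had 2680 and 1429 reads (2.16-fold lower), and CG1942, a diacylglycerol acyltransferase homologue, 142 and 81 (2.01-fold lower, a call that ended with total-count scaling). The other lower members, Fad2 (238 and 66 reads), eloF (87 and 28) and FASN3 (173 and 69), are known from oenocytes, and each had a CPM at least 5 times higher in carcass. The fatty acid synthase gene FASN1 (4511 and 2668 reads, 1.95-fold lower) and the desaturase gene Desat1 (11468 and 6974, 1.90-fold lower) did not pass. Lsd-1 too is among the list's 12 genes of other tissues, with a CPM in carcass 22.9 times that in gut. Without those 12, 2 lower calls were left (bgm and CG1942) and the median was -0.42, and with total-count scaling 4 were left. Lipolysis and fatty acid oxidation had 1 of 21 members lower, the lipase gene dob (38 and 13 reads, 3.29-fold), with a median of -0.29. This call ended with total-count scaling, and dob had a CPM in carcass 41.2 times that in gut. The brummer lipase gene bmm had 3481 and 2567 reads, 1.56-fold lower and not called. Of 22 genes of glycolysis, glycogen and trehalose, 1 was lower, the trehalose synthase gene Tps1, with 1648 and 851 reads, 2.23-fold lower. This call ended with total-count scaling, and Tps1 is a gene of other tissues. The trehalase gene Treh had 10553 and 19244 reads, a ratio of 1.58.

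Signals that act on stem cells and metabolism differed in single members. Of 20 measured growth factor and cytokine genes, 2 were higher and 1 lower (6 and 1 with total-count scaling), with a median log2 ratio of 0.18. The interleukin-like cytokine gene upd3 (chromosome X, 18277233 to 18284596), an activator of JAK-STAT signalling after gut damage, went from 198 to 576 reads and was 2.52-fold higher (2.14 to 2.98). The EGF receptor ligand gene vn, expressed in visceral muscle, went from 54 to 237 reads, 3.78-fold higher (2.82 to 5.22), and had a CPM in thorax that was 6.11 times that in gut. The activin-like ligand gene daw went the other way, from 622 to 88 reads, 8.11-fold lower (6.51 to 10.3). In thorax, where daw had 6.86 times the gut level, its ratio was 0.815. The growth factor genes Pvf1 (1005 and 2012 reads, ratio 1.74) and upd2 (24 and 65, ratio 2.32 with an interval from 1.45) and the guidance ligand gene sli (909 and 1977, ratio 1.89) did not pass.

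Receivers of these signals were mostly above equality and mostly uncalled. Of 14 genes of EGF and Ras signalling, 0 were called and 11 had ratios above 1, with a median log2 ratio of 0.32. The feedback phosphatase gene Mkp3 had 300 and 590 reads, a ratio of 1.71. In the JAK-STAT list, the feedback inhibitor gene Socs36E had 2242 and 4512 reads (ratio 1.75) and the receptor gene dome 1558 and 2668 (ratio 1.49). The stress peptide genes TotC (119 and 477 reads, 3.47-fold higher) and TotM (108 and 17 reads, 7.14-fold lower) were the called members of 12, in opposite directions. Both are genes of other tissues, with CPM in carcass 18.8 and 16.1 times that in gut. Of 21 stress kinase and Hippo genes, 1 was higher, the matrix metalloproteinase gene Mmp2 (205 and 522 reads, 2.21-fold).

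Insulin and TOR signalling had a median log2 ratio of 0.00, with 2 of 25 measured genes higher and 0 lower. Without genes of other tissues 1 higher call was left. The insulin receptor gene InR went from 453 to 1280 reads, 2.45-fold higher (2.20 to 2.74), and ImpL2, which codes for a secreted antagonist of insulin-like peptides, from 442 to 1077, 2.11-fold higher (1.89 to 2.37). Both genes are described as Foxo targets, as is daw. Among 21 reported targets, 2 were higher and 2 lower (4 and 1 with total-count scaling, 1 and 1 without genes of other tissues). The other lower one was Cyp4e2 (890 and 468 reads, 2.19-fold). The best known targets, Thor, the gene of the 4E-BP brake on translation (6541 and 4856 reads), and Sesn, the sestrin gene (1253 and 934), were both 1.55-fold lower and uncalled.

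Stem cell and progenitor genes showed 0 calls among 18 measured (3 higher with total-count scaling), with a median log2 ratio of 0.14. The progenitor marker esg had 566 and 538 reads, a ratio of 0.825, and the stem cell ligand gene Dl 159 and 344, a ratio of 1.87 (1.55 to 2.28). Cell cycle genes, in contrast, had ratios above 1 in 30 of 32, with a median of 0.45. The 2 called members (5 with total-count scaling) were the Cdc25 phosphatase gene stg, from 17 to 79 reads (3.94-fold higher, 2.37 to 7.27), and the cytokinesis gene feo, from 61 to 153 (2.17-fold higher). The cyclin gene CycA had 183 and 345 reads and the replication clamp gene PCNA 244 and 422, ratios of 1.63 and 1.50 that did not pass. However, 19 of the 32 had a CPM at least 5 times higher in thorax or carcass. The list summed to 426 CPM in control gut and 648 in foxo RNAi gut, against 2528 and 4886 in the carcass libraries. Both called genes are among these 19, and the 13 other members had 0 calls and a median of 0.33.

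Enteroendocrine genes had a median log2 ratio of 0.24, with 1 of 27 higher and 2 lower. The neuropeptide gene CNMa went from 974 to 204 reads, 5.49-fold lower (4.73 to 6.43), and the channel gene TrpA1 from 300 to 110, 3.13-fold lower (2.52 to 3.95). The ion transport peptide gene ITP went from 165 to 504 reads, 2.65-fold higher (2.22 to 3.18). The main gut peptide gene Tk, which codes for tachykinin, had 1232 and 1460 reads and a ratio of 1.03, with equality inside its interval of 0.953 to 1.11. Among 21 enterocyte identity and junction genes, 1 was higher, the POU factor gene pdm2 (652 and 1766 reads, 2.35-fold), next to which the related nub had 390 and 749, a ratio of 1.67.

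**Figure D3:**
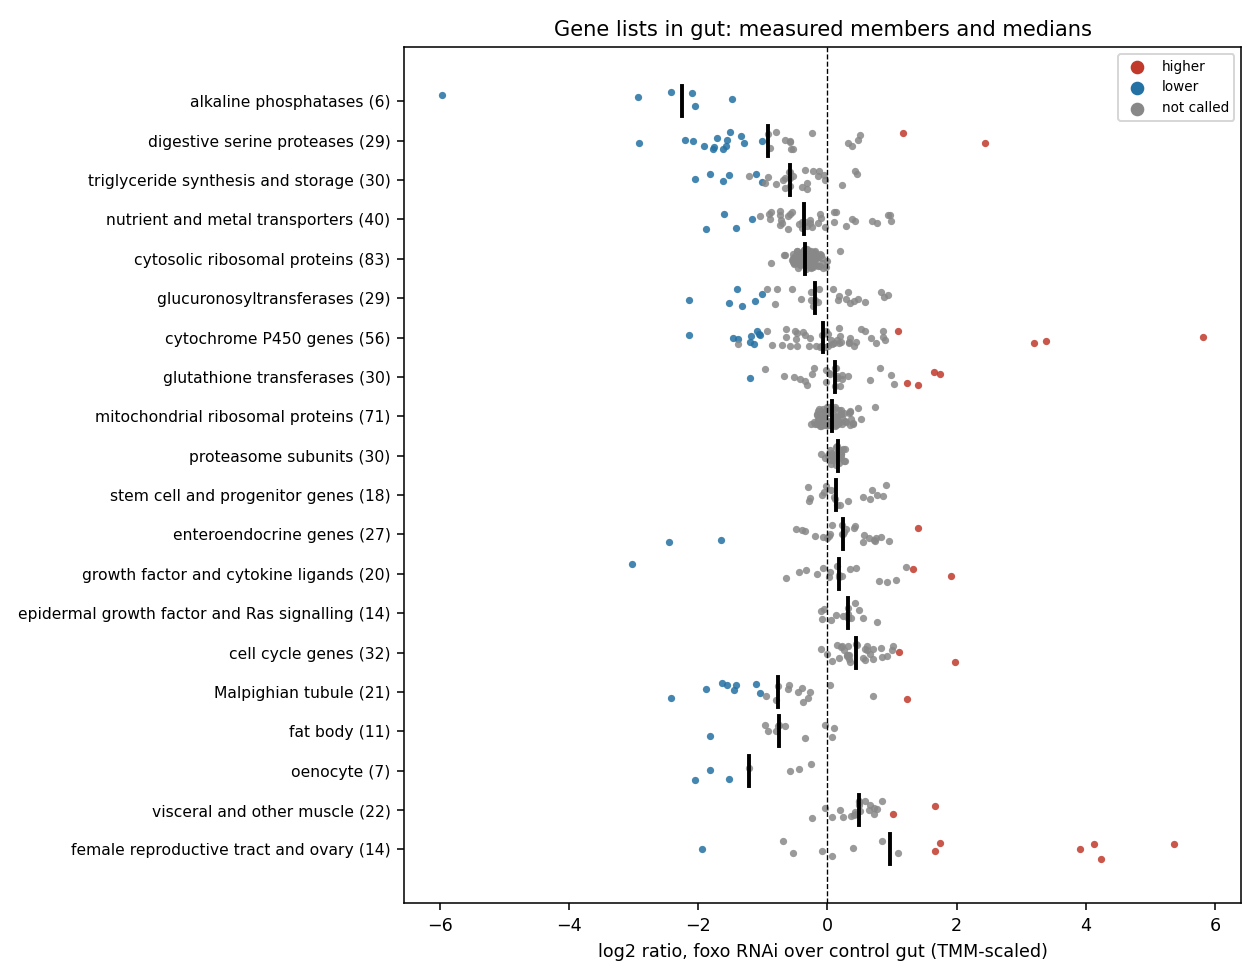
Log2 ratio of foxo RNAi over control gut for the measured members of 20 gene lists, with the number measured in brackets. Each point is a gene, coloured by its call, the black bar is the list's median, and the dashed line is the median of all genes, -0.01. The medians run from -2.25 for alkaline phosphatases to 0.97 for female reproductive tract and ovary genes. Of the 14 measured genes behind the upper value, 13 have a CPM at least 5 times higher in thorax or carcass. Some of them belong to a set chosen as higher in gut.

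Detoxification genes were called in both directions. Of 30 glutathione transferase genes, 4 were higher and 1 lower, and the higher ones lay in a single cluster on chromosome 3R. These were GstD2 (67 and 260 reads, 3.35-fold), GstD5 (173 and 630, 3.15-fold), GstD9 (357 and 1089, 2.64-fold) and GstD8 (156 and 425, 2.36-fold). In the same cluster the abundant GstD1 had 6334 and 12792 reads (ratio 1.75), while GstD3 (60 and 60 reads) and GstD7 (93 and 86) had ratios of 0.868 and 0.803. GstE10, the lower member, had 165 and 83 reads. Among the 56 measured P450 genes (cytochromes that oxidise small molecules), 4 were called higher and 9 called lower, with a median of -0.06. With total-count scaling the balance turned, with 7 higher and 3 lower and a median of 0.18. Cyp6a23 went from 742 to 8945 reads, 10.5-fold higher (9.71 to 11.3), while its neighbour Cyp6a21 went from 1108 to 621, 2.06-fold lower. The control library held 0 reads of Cyp12d1-d and the other library 32, a level at least 9.26-fold higher with the control set to a floor of 3 reads. Its near-identical copy Cyp12d1-p had 77 and 74 reads, so how reads divide between the copies is uncertain. Cyp6t3 (5 and 58 reads) was 9.23-fold and Cyp309a1 (327 and 801) 2.12-fold higher. Lower were Cyp4d8 (452 and 118 reads, 4.40-fold), Cyp6g1 (2390 and 1001, 2.75-fold), Cyp4e3 (2.60-fold), Cyp6a18 (2.29-fold), Cyp4d1 (2.26-fold), Cyp4ad1 (2.12-fold) and Cyp28d1 (2.08-fold), beside Cyp4e2 and Cyp6a21 above. The lower calls of Cyp4e2, Cyp6a21, Cyp6a18, Cyp4d1, Cyp4ad1 and Cyp28d1 ended with total-count scaling. Of 29 glucuronosyltransferase genes, 6 were lower and 0 higher, against 4 lower and 3 higher with total-count scaling. The lower ones were led by Ugt37b1 (151 and 39 reads, 4.42-fold) and CG4302 (4662 and 1871, 2.87-fold). The others were Ugt86Dg (2.65-fold), CG15661 (2.50-fold), Ugt86Dd (2.18-fold) and Ugt35b (2.01-fold).

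Immune and stress genes changed in few members. Of 16 antimicrobial peptide genes, 3 were higher and 0 lower. Drsl2, a relative of the antifungal peptide drosomycin, went from 32 to 1071 reads, 28.6-fold higher (20.4 to 42.7), and its level in thorax was 0.0375 times that in gut. AttD (165 and 438 reads) was 2.30-fold and Drs, the drosomycin gene, 3.42-fold higher (23 and 92 reads). Drs had a CPM in carcass that was 158 times that in gut. Of 27 immune recognition genes, 0 were called. Among 18 heat shock genes, Hsp27 (819 and 412 reads, 2.29-fold), Hsp68 (2101 and 1069, 2.26-fold) and Hsp23 (1076 and 572, 2.17-fold) were lower, but these calls ended with total-count scaling. Endoplasmic reticulum chaperones and stress genes had 0 of 27 called and 22 with ratios under 1, with a median of -0.26. Of 21 antioxidant genes, the peroxiredoxin gene Prx2540-2 was 2.29-fold higher (437 and 1152 reads) and the secreted superoxide dismutase gene Sod3 2.05-fold lower (1050 and 590 reads).

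Growth and housekeeping lists had 0 members called. Cytosolic ribosomal protein genes had ratios under 1 in 82 of 83, with a median log2 ratio of -0.34. Of all 7866 genes compared, 4019 had ratios under 1, and the most abundant 100 and 200 genes had medians of -0.30 and -0.29. After a loess correction for level the ribosomal median was -0.23. Proteasome subunits had ratios above 1 in 28 of 30, with a median of 0.16. Mitochondrial ribosomal protein genes had ratios above 1 in 46 of 71 and a median of 0.07, and genes of the respiratory chain ratios under 1 in 49 of 66 and a median of -0.13. With total-count scaling the ribosomal median was -0.11 and that of the respiratory chain 0.11.

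Large ratios were also seen in genes outside the lists above. CG32302 (chromosome 3L, 2268825 to 2269903) went from 17 to 4808 reads, 238-fold higher (153 to 422). The ionotropic receptor gene Ir40a, known from humidity sensing in the antenna, went from 6 to 499 reads, 66.7-fold higher (32.9 to 198). Gr89a and Ir76a were the other higher members among 7 measured chemoreceptor genes (29 and 129 reads, 30 and 91 reads). Of 186 chemoreceptor genes in the files, 126 had 0 reads in both gut libraries. Ir40a and Gr89a reached the minimum of 30 reads only with their foxo RNAi reads, so this count depends in part on the minimum. Of abundant genes, Arc1, which codes for a Gag-like capsid protein, went from 9737 to 25603 reads (2.28-fold higher), the tubulin gene betaTub60D from 3502 to 10337 (2.56-fold), CG42807 from 8912 to 22450 (2.19-fold), CG6967 from 2003 to 9425 (4.08-fold), CG8353 from 2470 to 7687 (2.70-fold) and CG15829 from 3182 to 7529 (2.05-fold). The other abundant genes called higher were CG13324 (1929 and 6733 reads, 3.03-fold), CG44013 (1873 and 6317, 2.93-fold), CG11878 (1711 and 5077, 2.57-fold), CG4363 (2209 and 5746, 2.26-fold), CG2064 (2329 and 5939, 2.21-fold) and CG42240 (1200 and 3022, 2.18-fold). The Wingless carrier gene Swim had 1570 and 4814 reads (2.66-fold higher) and the RNA-binding protein gene shep 2246 and 5396 (2.08-fold). Downward, after the phosphatase gene CG3264 above, Dscam4, an immunoglobulin adhesion gene, had 172 and 7 reads (26.5-fold lower), CG11893 349 and 18 (21.8-fold) and CG12490 120 and 9 (14.6-fold). CG30043 went from 821 to 98 reads (9.61-fold lower), CG9825 from 2540 to 407 (7.18-fold), CG6839 from 7120 to 1154 (7.11-fold), CG3819 from 17493 to 4475 (4.50-fold) and CG13315 from 22636 to 11696 (2.23-fold).

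Some of the largest increases were in genes far more abundant in another tissue. A set of 7 genes (CG16826, lcs, CG1678, CG45080, CG34212, CG33109 and CG44142), was chosen after values were seen as called higher in gut, at least 5 times more abundant in thorax and over 16-fold lower in carcass. These directions in gut and carcass therefore come from the choice. The 7 were 14.1-fold to 40.3-fold higher in foxo RNAi gut, with thorax levels 44.9 to 82.7 times those in gut. CG16826 had 268 control and 9168 foxo RNAi reads in gut, 412004 and 733435 in thorax, and 4238 and 114 in carcass. Together the 7 genes took 44.2 and 1338 CPM in gut, 43971 and 40147 in thorax, and 591 and 17.9 in carcass. In thorax their ratios ran from 0.615 to 1.19 with 0 called, and in carcass they were 33.7-fold to 127-fold lower. Of all 955 genes at least 5 times more abundant in thorax than in gut, 46 were higher and 43 lower in gut. The rise of CG13947 from 3 to 325 gut reads (ratio 80.7, 31.9 to 458) was accompanied by a thorax level 16.2 times that in gut.

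Downward, genes of other tissues with large differences were CG8147 (180 and 28 reads, 7.30-fold lower, 142 times more abundant in thorax), CG8129 (323 and 88 reads, 4.21-fold) and the C-type lectin gene lectin-28C (278 and 75 reads, 4.25-fold). From few foxo RNAi reads, CG42821 (47 and 1), CG10154 (31 and 2) and CG2121 (36 and 4) were lower by 36.5-fold (9.26 to 2184), 14.5-fold (4.55 to 154) and 9.35-fold (3.72 to 40.1).

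A second set of 7 genes (CG42704, CG43090, CG32834, CG42705, CG17239, Send1 and CG31681), was chosen after values were seen as called higher in gut, called lower in carcass and over 30 times more abundant in carcass, so that these directions too come from the choice. Carcass levels were 35.7 to 79.7 times those in gut. Send1, CG17239, CG32834 and CG31681 are proteases of the spermatheca, the sperm store of females. In foxo RNAi gut the set was 14.98-fold to 41.4-fold higher, from 1 to 8 reads per gene in the control to between 50 and 179. Together these genes took 1.72 and 49.6 CPM in gut and 1929 and 785 in carcass, where each was lower by 2.24-fold to 2.98-fold. Of 14 measured female reproductive tract and ovary genes, 6 were higher and 1 lower in gut, and 13 had a CPM at least 5 times higher in thorax or carcass. The count of 6 takes in the 4 protease genes, already chosen as higher. These 4 reached the minimum of 30 reads only through the foxo RNAi library, so the count follows in part from the choice. Besides the 4 protease genes, the higher members were the eggshell genes Cp19 (23 and 90 reads) and dec-1 (13 and 49), and the lower one was the oocyte gene osk (48 and 14). The whole list of 24 summed to 108 CPM in control and 122 in foxo RNAi gut.

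**Figure D4:**
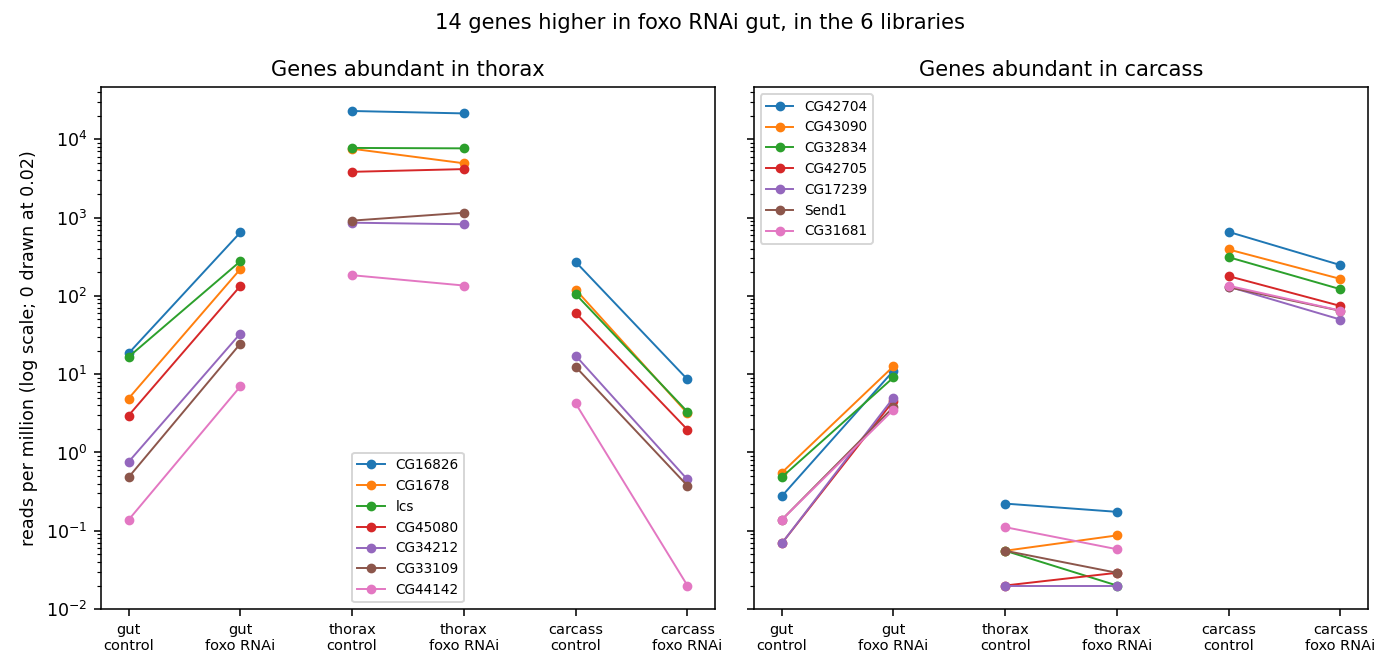
CPM (log scale, 0 drawn at 0.02) of 14 genes in the 6 libraries, 1 point per gene and library; lines join the 2 libraries of a tissue. Both sets were chosen as higher in gut and lower in carcass; the thorax ratios of the genes abundant in thorax run from 0.615 to 1.19.

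Some marker lists of other cell types had medians away from that of all genes and others lay near it. Their part in the results above was not tested. Of 22 measured muscle genes 2 were higher, Act79B (42 and 155 reads, 3.17-fold) and the titin-like gene bt (619 and 1442, 2.02-fold), while 20 had ratios above 1 and the median log2 ratio was 0.49. Among the 22, 19 are genes of other tissues, both called ones included. The list summed to 1484 CPM in control and 2472 in foxo RNAi gut. The call of bt lies at the threshold. Of 10 flight muscle genes, 6 were measured, with 0 called, all 6 ratios above 1 and a median of 0.48. That list summed to 1257 and 1826 CPM, and its 3 members that are not genes of other tissues had a median of 0.13. It shares Mhc, Tm1 and Mlp84B with the muscle list and includes the glycolysis genes Pfk and Gapdh2. Its values are therefore neither those of flight muscle alone nor separate from the muscle list. Of 21 Malpighian tubule genes 8 were lower (6 with total-count scaling) and 1 higher, with a median of -0.77 and sums of 2761 and 1647 CPM. The phosphate transporter gene Picot, described above, held a large part of both sums and most of the fall between them. Besides Alp4, Smvt, ZnT35C and Picot, the lower ones were the chloride channel gene ClC-a (1323 and 492 reads, 3.10-fold), the organic anion transporter gene Oatp58Dc (587 and 230, 2.94-fold), the phosphate transporter gene NaPi-T (2.15-fold) and salt (2.06-fold), and the higher one was cv-2, a BMP-binding protein gene (356 and 966, 2.35-fold). The tubule enzyme gene Uro, which codes for urate oxidase, had 619 and 370 reads, 1.93-fold lower and not called. Fat body genes had a median of -0.74, with 1 of 11 lower, Lsp1beta (136 and 44 reads), and sums of 2366 and 1635. Lsp1beta is a gene of other tissues, as are slo and Tektin-C below. Oenocyte genes had 3 of 7 lower, the Fad2, eloF and FASN3 named above, and a median of -1.22, with sums of 537 and 461 CPM. Of these 7, 5 are genes of other tissues. The 2 others had 0 calls and a median of -0.74. Haemocyte genes had 0 of 7 called and a median of 0.34, neuron genes 1 of 7 lower (the potassium channel gene slo, 675 and 370 reads) and a median of 0.36, and genes of trachea and cuticle 0 of 8 called and a median of 0.01. Of 3 measured testis genes, Tektin-C was lower (87 and 5 reads, 18.3-fold), and of 2 photoreceptor genes 0 were called. Of 8 odorant-binding protein genes, all more abundant in another tissue, Obp56a was higher (6 and 31 reads) and Obp99a lower (126 and 39).

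The same genes were read in the thorax and carcass libraries of these genotypes, where 3.56% and 3.41% of genes compared were higher and 2.72% and 10.2% lower. Of the 175 genes higher in gut, 139 were measured in thorax, with 33 higher and 7 lower, and 143 in carcass, with 20 higher and 31 lower. Of the 250 lower in gut, 186 were measured in thorax, with 22 higher and 30 lower, and 207 in carcass, with 2 higher and 101 lower. Lower calls in gut thus met lower calls in carcass in 48.8% of the genes measured there. Digestive genes diverged by tissue. CG12374 had 397 and 5371 thorax reads (6.66-fold higher) and betaTry 86 and 1968 (11.2-fold higher). Jon99Ciii had 35 and 111 reads in thorax, at unequal depth and not called higher there, and 1121 and 54 in carcass (19.6-fold lower). The digestive protease list summed to 73.2 and 843 CPM in thorax and 978 and 124 in carcass, far below its share in gut.

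A few genes were called the same way in all 3 tissues, 10 higher and 19 lower of 7420 measured in each. The higher ones were CG32302, CG3397, Cyp12d1-d, Cyp6a23, CG4250, TotC, CG12224, betaTub60D, CG4098 and feo. CG3397 had 1 and 50 reads in gut, 0 and 724 in thorax, and 0 and 446 in carcass. CG32302 had 1 and 430 reads in thorax and 8 and 205 in carcass. Among the lower ones, Dscam4, CG11893, Tektin-C, CG17751 and Alp2 had the largest gut differences. Alp2 had 231 and 3 reads in thorax and 9680 and 2567 in carcass, and Tektin-C 1007 and 31 in thorax and 83 and 5 in carcass.

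**Figure D5:**
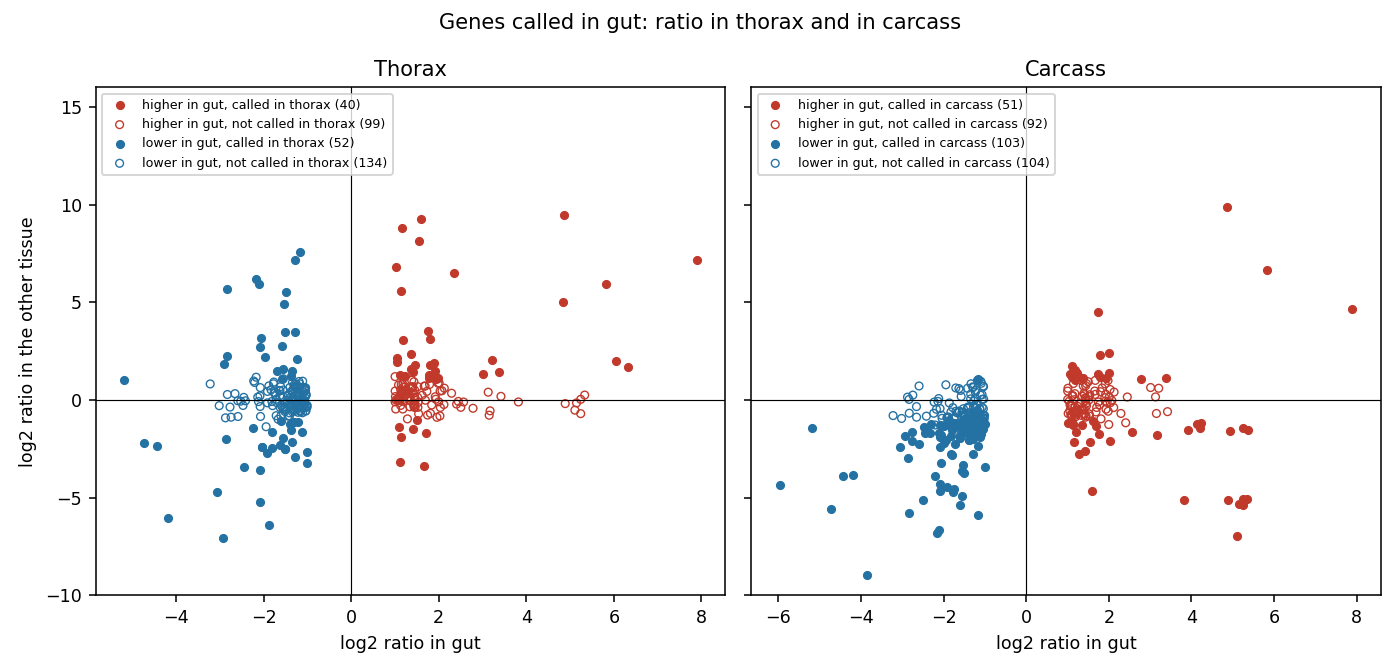
Log2 ratio in thorax (left) and carcass (right) against that in gut for genes called in gut and measured in the other tissue, 1 point per gene; filled points are also called in the other tissue. Of the 207 genes lower in gut and measured in carcass, 101 are lower and 2 higher there.

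Single calls depended on the scaling or the unit. With total-count scaling, 26 of the calls on named genes ended, among them Cyp4e2 (log2 -0.90), deltaTry (-0.78), Mal-A3 (-0.87), bgm (-0.88), Eaat1 (-0.93), Sod3 (-0.80), Cyp6a21 (-0.80), slo (-0.84) and dob (-1.48), whose bound fell short, and calls upward were gained for upd2 (1.45), Dl (1.14), Pvf1 (1.03), Socs36E (1.04) and Zip99C (1.22). After a loess correction for level, betaTry was at -0.99 and no longer called. On the log2 scale of deposited RPKM with 1 added, which understates low genes and divides by the whole span of a gene, introns included, calls ended for InR (0.79), vn (0.44), ITP (0.79), stg (0.89), Mmp2 (0.33), TrpA1 (-0.77), ZnT35C (-0.45), FASN3 (-0.56) and Dscam4 (-0.33), among others.

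Of the genes named, Jon44E, deltaTry, Try29F, Mal-A1, Ctr1B, Fer1HCH, Fer2LCH, Lsd-1, Tps1, Treh, Zip99C, Sesn, sli, CycA, ITP, Tk, pdm2, nub, Cp1, GstE10, Cyp6g1, Cyp6t3, Cyp28d1, CG4302, Hsp68, salt, Swim, shep, CG32302, CG4098, CG6967, CG8353, CG2064, CG6839, CG8129, lectin-28C, CG32834, CG31681, Ir76a and Dscam4 lie over part of a second coding gene, which leaves their counts uncertain. Among the called genes 22.1% do so, against 38.6% of all genes compared.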

How the data were processed

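Total RNA of 6 samples (2 genotypes, 3 tissues, 1 library each) was made into libraries with a stranded kit, per the labels' protocols, and reads of 50 bases were mapped to Release 6 of the fly genome, per the series design text. The aligner was not given in the sources used here, nor were the counting tool, its strand setting or the handling of reads with several map positions. Each deposited count is a whole number of reads for 1 gene and is not normalized. Each deposited RPKM value divides by the library total and by a length that runs from gene start to gene end with introns. Coding genes lying inside another coding gene (1542) had 0 reads in every library and were treated as not measured. Coordinates are those of the files.

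Gut counts were scaled with TMM (edgeR 4.0.16 in R 4.3.3); ratios and exact Clopper-Pearson 95% intervals were computed with scipy 1.17.1. A fold against 0 reads used a floor of 3 reads in that library. PCR copies are not independent molecules, so intervals and floors cover counting error only. Levels (CPM) are deposited counts per 1000000 counted reads. The calculation was tested on simulated counts.

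The members, gene lists and rules were chosen with earlier results of these data known, and after values were seen 1 misfiled list member (ninaD) was moved and others (Mp1, Sra-1, argos, th and Act57A among them) were dropped. The text names foxo, every called gene of a list, per direction the 12 called genes with the largest near bound, the 20 with the highest mean level and the 10 of other tissues with the largest near bound, and genes called in opposite directions in 2 tissues. Alternatives were total-count scaling, DESeq2 1.42.0 size factors, a loess correction, read minimums of 10, 100 and none, a stricter fold, RPKM with 1 added, and leaving out genes of other tissues or overlapping genes. No p-value was computed.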

Additional observations from a re-analysis of the deposited data

Results flagged for a closer look

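Some genes were called in opposite directions in gut and in another tissue under the same contrast. With 1 library per side the difference between tissues was not tested. For each gene the log2 ratio in gut comes first and that in the other tissue second. The 22 genes lower in gut and higher in thorax were CG42821 (-5.19 and 1.01), Jon25Bii (-2.91 and 1.83), TotM (-2.84 and 2.25), CG6839 (-2.83 and 5.69), CG3819 (-2.17 and 6.17), CG3906 (-2.12 and 5.92), CG10592 (-2.09 and 2.69), CG5150 (-2.06 and 3.15), CG8560 (-1.98 and 2.19), Jon25Bi (-1.71 and 1.48), CG12374 (-1.59 and 2.74), CG17036 (-1.58 and 1.07), Jon99Fi (-1.57 and 1.59), Phae2 (-1.53 and 4.91), epsilonTry (-1.51 and 3.46), Cht9 (-1.50 and 5.54), CG7589 (-1.38 and 1.22), Sodh-1 (-1.34 and 1.46), betaTry (-1.29 and 3.49), CG43673 (-1.28 and 7.16), CG7542 (-1.24 and 2.08) and CG10725 (-1.17 and 7.55). The 7 genes higher in gut and lower in thorax were Tsp42Ei (1.70 and -1.71), GstD5 (1.66 and -3.39), CG3964 (1.50 and -1.04), GstD9 (1.40 and -1.49), Shaw (1.14 and -1.87), CG14695 (1.10 and -3.16) and Cyp309a1 (1.09 and -1.39). The 2 genes lower in gut and higher in carcass were Hsp27 (-1.20 and 1.03) and PH4alphaPV (-1.16 and 1.06). The 31 genes higher in gut and lower in carcass were CG17239 (5.37 and -1.56), CG33109 (5.33 and -5.08), CG42705 (5.24 and -1.43), CG1678 (5.24 and -5.40), CG45080 (5.24 and -5.09), CG34212 (5.15 and -5.31), CG44142 (5.11 and -6.99), CG42704 (4.92 and -1.57), CG16826 (4.89 and -5.14), Send1 (4.24 and -1.17), CG43090 (4.20 and -1.42), CG31681 (4.13 and -1.22), CG32834 (3.90 and -1.52), lcs (3.82 and -5.14), CG11000 (3.17 and -1.77), Hs3st-A (2.57 and -1.62), sif (2.03 and -2.11), CG11550 (1.77 and -1.73), SK (1.69 and -1.35), CG10407 (1.62 and -1.09), CG13324 (1.60 and -4.69), CG44013 (1.55 and -2.18), Ent3 (1.43 and -2.59), onecut (1.34 and -1.29), Crys (1.28 and -2.77), AttD (1.20 and -1.66), Ser6 (1.16 and -2.16), Shaw (1.14 and -1.23), CG42807 (1.13 and -1.27), Cyp309a1 (1.09 and -1.12) and Eip93F (1.02 and -1.20). Of the 22 genes lower in gut and higher in thorax, 5 are on the digestive serine protease list and 2 on the alkaline phosphatase list.

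Some reads appear behind RPKM values but not in the counts. In gut, 592 genes were listed at a count of 0 with an RPKM above 0, and the reads behind RPKM could be recovered as whole numbers within 0.001 in 100% of entries. Of the 113 with at least 30 reads, 5 were higher in the foxo RNAi library than in the control, with ratios of 5.37 for CR40469, 5.25 for CR45600, 5.13 for CR43253, 2.28 for CR42532 and 2.27 for CR40354, and 13 were lower. Ribosomal RNA pseudogenes held 52837 such reads in control and 12397 in foxo RNAi gut. These reads made up 0.515% and 0.292% of the libraries, and their part in the other results was not tested.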

How the results depend on the processing

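The count of higher genes (175) was 333 with total-count scaling, 67 with a ratio of at least 3 and a bound of 2, and 112 without genes of other tissues. The count of lower genes (250) was 102 with the stricter ratio and 122 on the RPKM scale. With DESeq2 size factors the counts were 175 and 250, after a loess correction 166 genes were higher, with read minimums of 10, 100 and none 188 and 266, 129 and 223, and 191 and 267, and without overlapping genes 129 and 202. On the RPKM scale 167 were higher, of which 116 were among the 175. Higher genes made up 41.2% of calls with TMM, 65.9% with total counts, 57.8% with RPKM and 36.4% without genes of other tissues. The number of genes of other tissues (1281) was 2115 at a factor of 3 and 757 at a factor of 10. Of the 225 genes named, 0 changed call with DESeq2 size factors, 26 calls ended and 11 were gained with total counts, 3 ended and 1 was gained after loess, and 57 ended and 4 were gained on the RPKM scale. Among those 225, 0 reversed direction while called in these settings. No paired analysis was possible because each group has 1 library, and for the same reason no replicate could be left out. Depth limits genes near the minimum of 30 reads most, and a gene with 0 reads in a library has only a bound.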
